A study of Mus musculus with 6 samples.

Results

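The mitotic genes described here are 34 genes whose products drive chromosome segregation and cell division, named by symbol and chosen with earlier results of these data known, out of 56691 genes in the deposited table. Each of the 34 matched 1 row, and all 34 had enough reads to be tested. Expression was measured by RNA sequencing in a mouse macrophage line (RAW246.7 in the labels, genotype WT). There were 3 libraries from cells kept for 24 h on MSA-DA hydrogels and 3 from cells kept for 24 h on MSA-ZW hydrogels. Cells of both groups had been pretreated with lipopolysaccharide (LPS), a bacterial product that activates macrophages, so neither group shows the unstimulated state. No label names separate cultures, so p-values here reflect only how far these samples differ among themselves, and that spread may be technical.

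Entry into mitosis is driven by cyclin-dependent kinase 1 with its A and B type cyclins, and exit by the anaphase-promoting complex (APC/C), a ubiquitin ligase that marks the cyclins for destruction. Between these steps, motor proteins build the spindle, kinetochores attach chromosomes to it, and a checkpoint holds the APC/C back until attachment is complete. Many of the genes are transcribed late in the cell cycle, and their RNA is most abundant in cells in G2 and mitosis. RAW macrophages are a transformed line that divides in culture, unlike most tissue macrophages.

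The promoters of 4 members are shown because this gene class is known for a shared pair of short elements. These are the CHR element, where the DREAM and MuvB complexes bind cell cycle promoters, and the CCAAT box, bound by NF-Y. Each sequence holds the 250 bases before the transcription start, 5′ to 3′, from RefSeq on GRCm38.p6 (a different build from the GRCm39 of the expression data). Capitals mark CHR elements, searched as TTTGAA or TTTAAA, and CCAAT, on both strands, where neighbouring matches may share bases. Cdc20, Cenpf and Plk1 are members that fell on MSA-DA and Ccnb1 is the cyclin B1 gene.
Cdc20 (GRCm38.p6, chr4:118437344-118437593, minus strand): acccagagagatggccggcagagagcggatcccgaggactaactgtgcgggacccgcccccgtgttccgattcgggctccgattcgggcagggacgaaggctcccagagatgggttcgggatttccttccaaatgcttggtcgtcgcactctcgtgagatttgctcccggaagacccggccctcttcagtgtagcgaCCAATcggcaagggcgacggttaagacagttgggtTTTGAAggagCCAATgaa
Cenpf (GRCm38.p6, chr1:189688087-189688336, minus strand): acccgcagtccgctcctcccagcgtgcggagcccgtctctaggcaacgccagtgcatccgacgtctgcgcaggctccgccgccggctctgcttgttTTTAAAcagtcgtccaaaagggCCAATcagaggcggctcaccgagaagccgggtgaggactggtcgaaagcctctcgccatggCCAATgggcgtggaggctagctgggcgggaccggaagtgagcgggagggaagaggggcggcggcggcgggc
Plk1 (GRCm38.p6, chr7:122159185-122159434, plus strand): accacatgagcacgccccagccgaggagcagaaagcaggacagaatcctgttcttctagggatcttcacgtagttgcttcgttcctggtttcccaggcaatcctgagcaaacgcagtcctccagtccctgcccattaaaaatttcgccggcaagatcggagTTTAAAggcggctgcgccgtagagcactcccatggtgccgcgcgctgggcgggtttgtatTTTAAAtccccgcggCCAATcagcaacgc
Ccnb1 (GRCm38.p6, chr13:100786487-100786736, minus strand): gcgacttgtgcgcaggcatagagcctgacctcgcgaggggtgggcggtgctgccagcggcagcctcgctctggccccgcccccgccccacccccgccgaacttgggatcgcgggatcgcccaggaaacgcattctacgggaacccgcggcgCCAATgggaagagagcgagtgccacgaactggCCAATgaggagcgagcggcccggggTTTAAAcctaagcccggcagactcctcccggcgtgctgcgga

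In Cdc20 the CHR letters lay 18 to 13 bases before the start, between CCAAT boxes at 53 to 49 and at 8 to 4 bases before it. Ccnb1 carried its CHR letters 42 to 37 bases before the start, downstream of both of its CCAAT boxes. Plk1 had TTTAAA in 2 places and 1 CCAAT, while Cenpf had its CHR letters upstream of both CCAAT boxes. Of the 34 members, 30 matched a RefSeq promoter entry, with 32 windows in all. CHR letters were in 18 of these 32 windows, and in 25.2% of all 32851 promoter windows of the same length. CCAAT was in 24 of the 32 windows, against 33.8% of all windows. Both were present in 15 of the 32, against 8.78% of all windows. Of the 5 windows from members that fell on MSA-DA, 4 held CHR letters and 5 held CCAAT, and of the 27 windows from other members 14 and 19 did. A match is a description of these letters, not a bound site.

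All libraries carried abundant mitotic transcripts. In FPKM, which scales counts by gene length and library total, the members' means over 6 libraries ran from 10.6 (Kif15) to 98.6 (Top2a), with a median of 25.3. The lowest count of any member in any library was 643 and the highest 16358. Library totals were 14374912 to 18346615 counts on MSA-DA, against 16347934 to 18193026 counts on MSA-ZW. Of the 10 macrophage markers, Lyz2, Cd68 and Csf1r had the highest mean FPKM at 1541, 476 and 175. Itgam, Ptprc and Adgre1 had the lowest, at 25.6, 16.1 and 7.84. The 6 fibroblast markers had at most 6 counts in any library, the 4 epithelial markers at most 1 and the 5 T cell markers at most 214. Summed macrophage markers stood at 4244 to 4312 CPM (counts scaled to the TMM-adjusted library total) on MSA-DA, against 4936 to 4980 CPM on MSA-ZW. Of those 10 markers 5 fell and 1, Itgam, rose, and the log2 difference was below 0 in 6 and above 0 in 4. Lyz2, the largest, averaged 1769 CPM on MSA-DA, against 2291 CPM on MSA-ZW. Mitochondrial genes took 3.11% ± 0.0136 of counts on MSA-DA, against 2.74% ± 0.0268 on MSA-ZW (SD, n = 3 each). The part of either difference in the results on mitotic genes was not tested.

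**Figure D1:**
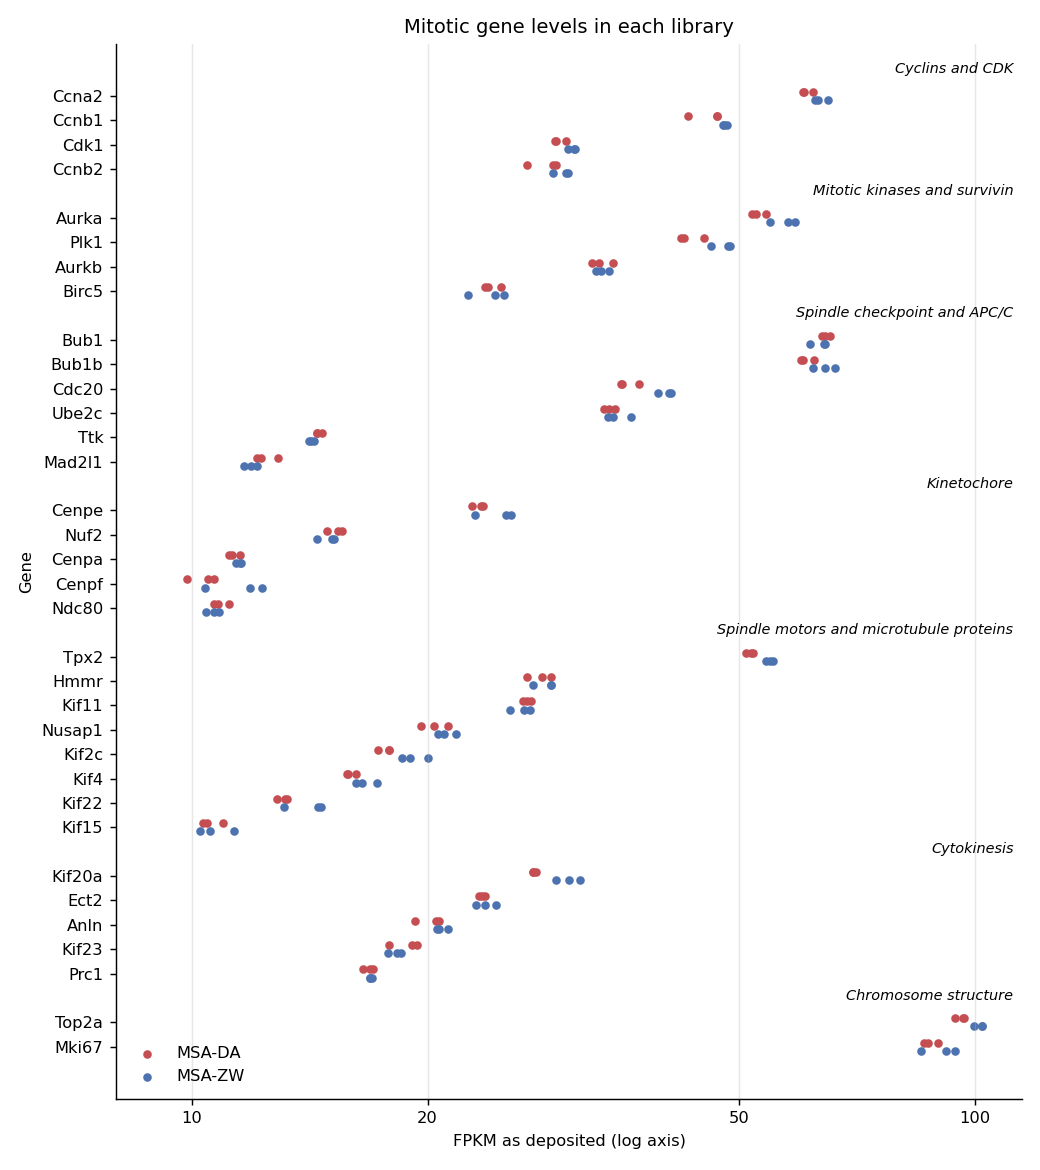
FPKM of the 34 mitotic genes in each library (log axis), grouped by role, with the 3 MSA-DA libraries above the 3 MSA-ZW libraries of each gene. Top2a and Mki67 stood highest, at means of 98.6 and 89.1 FPKM, and the libraries of both gels lay close together for every gene.

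Of the 34 members 6 fell on MSA-DA, 0 rose and 28 did not pass (edgeR quasi-likelihood test, Benjamini-Hochberg adjusted p below 0.05 over 12467 genes). The 6 are 17.6% of the members, where 6.5% of all tested genes fell and 6.92% rose. They were Cdc20, Cenpf, Kif20a, Plk1, Aurka and Top2a, and their falls were small, between 4.89% and 10.2%. Every member had at least 643 counts in each library, while the tested genes included some of far lower count, such as Gadd45a at 37 to 63. Shares among genes of like count were not computed, so the shares here are not matched for level. At an unadjusted p below 0.05 edgeR gave 11 members lower and 0 higher, DESeq2 9 and 0, and limma 8 and 0 with log2(FPKM + 1) as its input. Over all genes the shares lower and higher at that p were 12.4% and 12.8% with edgeR, 13.1% and 11.6% with limma, and 4.45% and 4.51% with DESeq2, which gave a p to 23572 genes, many of low count. The median log2 difference (MSA-DA minus MSA-ZW) was -0.041 over the 34 members, a 2.83% lower level, and 0.00085 over all tested genes. It was below 0 in 25 of 34 members, against 49.7% of all tested genes.

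The summed level of the 34 genes was 6018, 6033 and 5977 CPM on MSA-DA, against 6192, 6284 and 6109 CPM on MSA-ZW. The sums did not overlap, with means of 6009 ± 28.9 CPM on MSA-DA, against 6195 ± 87.4 CPM on MSA-ZW (SD, n = 3 each), a 2.99% lower sum. In bulk RNA, fewer cells in mitosis and less of these RNAs per mitotic cell cannot be told apart. On MSA-DA 14, 12 and 9 members lay above their own mean over 6 libraries in replicates 1, 2 and 3, against 19, 24 and 22 on MSA-ZW. MSA-ZW replicate 2 was the library with the most members at their highest value, 11 of 34. For single genes the groups did not overlap with MSA-DA lower in 9 of 34 members (26.5%, against 13.7% of all tested genes). They did not overlap with MSA-DA higher in 2 of 34, Ttk and Mad2l1 (5.88%, against 14.7%). The spread between replicates was small, with a median coefficient of variation over the members of 2.10% on MSA-DA, against 2.73% on MSA-ZW.

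**Figure D2:**
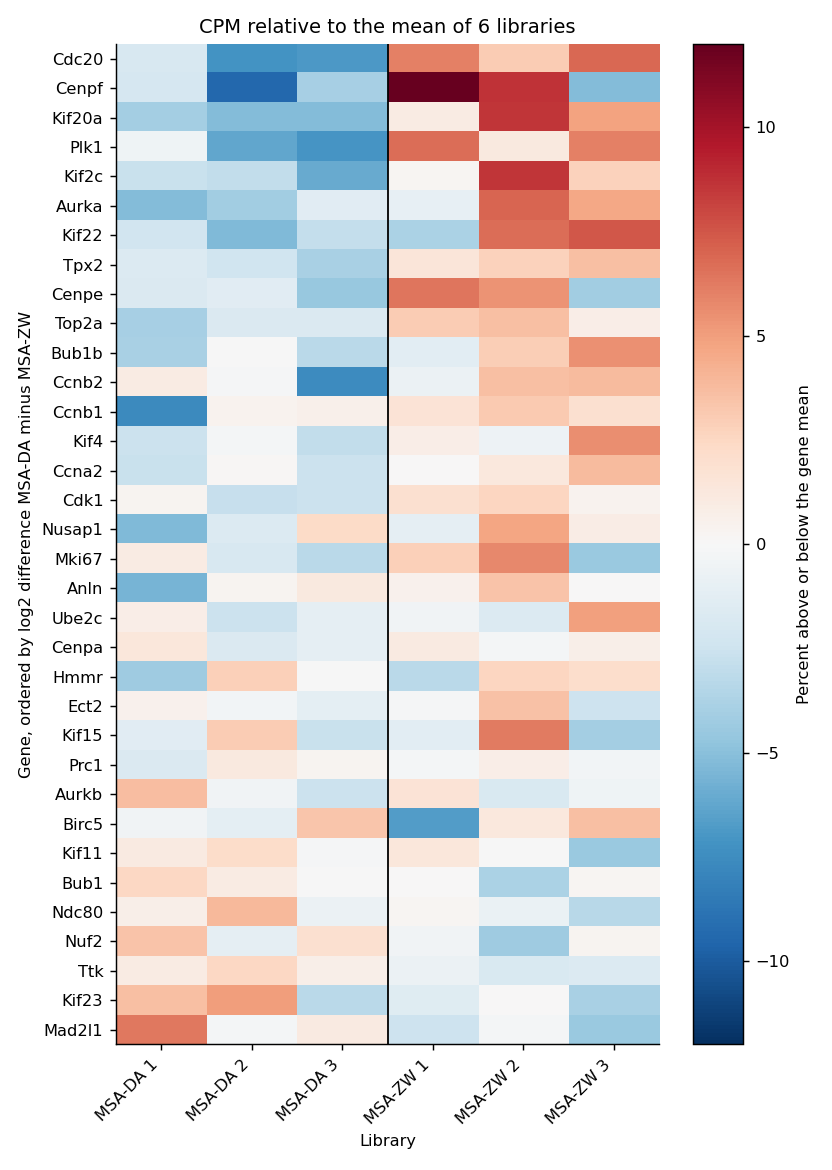
CPM of each mitotic gene in each library as percent above or below its mean over the 6 libraries, MSA-DA libraries on the left, genes ordered by their log2 difference. In the top row, Cdc20, all 3 MSA-DA libraries lie below the mean and all 3 MSA-ZW libraries above it, while Cenpf, Aurka and Kif22 each have 1 MSA-ZW library below their mean and Ttk has its 3 MSA-DA libraries above it.

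The count of 6 depended on the libraries and the tool, and each count below is of members called in either direction, all of them lower on MSA-DA. It was 1 without MSA-DA replicate 2, 2 without MSA-DA replicate 3 and 2 without MSA-ZW replicate 2, where 7.89%, 8.39% and 10.3% of all tested genes were called. Leaving out MSA-DA replicate 1, MSA-ZW replicate 1 or MSA-ZW replicate 3 gave 4, 6 and 7 members, where 9.66%, 11.1% and 13% of all tested genes were called. DESeq2 called 3 members and 12.5% of all genes it adjusted. The limma fits called 2 members with log2(FPKM + 1), 2 with log2(FPKM + 0.1) and 0 without an FPKM filter, where 8.33%, 8.23% and 1.75% of all tested genes were called.

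Cyclins and their kinase stood lower on MSA-DA in 4 of 4 members, where 49.7% of all tested genes lay lower. Of these 4 members 0 passed the edgeR test, 0 at an unadjusted p below 0.05 and 0 with DESeq2. Over all tested genes edgeR called 6.5% lower, and 12.4% were lower at that unadjusted p. Ccnb1, which encodes cyclin B1 (ENSMUSG00000041431, chromosome 13, 100915158 to 100923078, GRCm39), had 182, 198 and 198 CPM on MSA-DA, against 200.5, 203 and 201 CPM on MSA-ZW. The MSA-DA libraries all lay below the MSA-ZW libraries, and MSA-DA replicate 1 was the lowest. The log2 difference of -0.062, with a standard error (SE) of 0.033, did not pass (edgeR adjusted p = 0.237). Cdk1, the kinase that cyclin B1 activates, had 149, 144 and 145 CPM on MSA-DA, against 151, 152 and 148.9 CPM on MSA-ZW, with the groups barely apart (edgeR adjusted p = 0.381). Ccna2, encoding cyclin A2, had 248, 255 and 248 CPM on MSA-DA, against 255, 258 and 264 CPM on MSA-ZW, with overlapping groups (edgeR adjusted p = 0.304). Ccnb2, encoding cyclin B2, averaged 43.5 ± 2.08 CPM on MSA-DA, against 45.5 ± 1.13 CPM on MSA-ZW (SD, n = 3 each). Reads from the pseudogene copies Ccnb1-ps and Ccnb2-ps could be shared with their parent genes, although their mean counts were only 39.7 and 7.5 against 3277 and 738 for the parents.

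Among the mitotic kinases, Plk1 and Aurka fell on MSA-DA and Aurkb did not pass. Plk1, the polo-like kinase that acts from mitotic entry to cytokinesis (ENSMUSG00000030867, chromosome 7, 121758662 to 121769096, GRCm39), had 99.6, 93.8 and 93.0 CPM on MSA-DA, against 107, 101 and 106 CPM on MSA-ZW. The groups did not overlap, with 1.10-fold lower levels on MSA-DA (log2 difference -0.14, SE 0.039, edgeR adjusted p = 0.0167). Aurka, the centrosomal kinase Aurora A (ENSMUSG00000027496, chromosome 2, 172198110 to 172212455, GRCm39), had 132, 133 and 137 CPM on MSA-DA, against 138, 149 and 146 CPM on MSA-ZW. The groups were adjacent without overlap, and Aurka passed narrowly (log2 difference -0.10, SE 0.035, edgeR adjusted p = 0.0464). Its call was lost in 12 of 16 alternatives, among them the fits without any one of the 3 MSA-DA libraries, without MSA-ZW replicate 2 and without MSA-ZW replicate 3. Plk1 lost its call in 9 of 16, and the edgeR adjusted p was 0.0879 without MSA-DA replicate 2, 0.088 without MSA-DA replicate 3 and 0.0587 without MSA-ZW replicate 1.

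Aurora B and survivin, which work together in the chromosomal passenger complex that corrects attachment errors, lay close to equal. Aurkb had 102, 98.0 and 95.9 CPM on MSA-DA, against 100.02, 96.6 and 97.9 CPM on MSA-ZW, a difference of 0.39% with a 95% interval from -4.89% to 5.96%. Birc5, encoding survivin, had 81.6, 81.0 and 84.6 CPM on MSA-DA, against 76.5, 83.0 and 84.9 CPM on MSA-ZW, a difference of 1.07% with an interval from -4.92% to 7.45%. In both genes the groups overlapped, and MSA-ZW replicate 1 was low for Birc5.

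Of the spindle checkpoint and APC/C genes, only Cdc20 passed, where 6.5% of all tested genes fell. Cdc20, the APC/C activator on which the checkpoint acts (ENSMUSG00000006398, chromosome 4, 118290098 to 118294549, GRCm39), had 69.9, 66.2 and 66.4 CPM on MSA-DA, against 75.7, 73.5 and 76.2 CPM on MSA-ZW. The groups were clearly apart, and Cdc20 showed the largest fall of the 34 members, 1.11-fold (log2 difference -0.16, SE 0.043, edgeR adjusted p = 0.0131). It lost its call in 6 of 16 alternatives. These were the fits without MSA-DA replicate 2 or 3 (edgeR adjusted p of 0.0701 and 0.0577), DESeq2 (adjusted p = 0.0575), limma without an FPKM filter (adjusted p = 0.0621) and both GC-corrected fits. The checkpoint genes went both ways without passing. Bub1b, encoding BubR1, averaged 261 ± 5.52 CPM on MSA-DA, against 274 ± 9.06 CPM on MSA-ZW (SD, n = 3 each, edgeR adjusted p = 0.143), and passed once MSA-ZW replicate 1 was left out, at 0.0489. Mad2l1, encoding the checkpoint protein MAD2 that binds CDC20, averaged 105 ± 3.55 CPM on MSA-DA, against 99.7 ± 2.11 CPM on MSA-ZW, the largest positive difference of the set (log2 difference 0.068, edgeR adjusted p = 0.275). Ttk, the kinase MPS1 that starts checkpoint signalling, averaged 71.7 ± 0.672 CPM on MSA-DA, against 69.8 ± 0.403 CPM on MSA-ZW. For the kinase gene Bub1 the averages were 282 ± 3.61 CPM on MSA-DA, against 276 ± 6.37 CPM on MSA-ZW, and for Ube2c, the ubiquitin-conjugating enzyme of the APC/C, 89.1 ± 1.5 CPM on MSA-DA, against 90.8 ± 3.11 CPM on MSA-ZW.

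Of the 5 kinetochore genes only Cenpf passed, where 6.5% of all tested genes fell. Cenpf, a large protein of the outer kinetochore (ENSMUSG00000026605, chromosome 1, 189372803 to 189420283, GRCm39), had 165, 153 and 162 CPM on MSA-DA, against 189, 183.5 and 160.2 CPM on MSA-ZW. The groups overlapped, with MSA-ZW replicate 3 far below the other MSA-ZW libraries, and Cenpf was the only one of the 6 called members with overlapping groups. Its log2 difference was -0.15 with an SE of 0.042 (edgeR adjusted p = 0.0146). Its call was lost in 6 of 16 alternatives, including the 3 limma fits (limma adjusted p of 0.215, 0.216 and 0.420). Leaving out 1 library ended it in 3 cases, with an edgeR adjusted p of 0.139 without MSA-DA replicate 2, 0.127 without MSA-ZW replicate 1 and 0.0851 without MSA-ZW replicate 2. Cenpe, a kinetochore motor protein, averaged 201 ± 3.51 CPM on MSA-DA, against 212 ± 12.02 CPM on MSA-ZW, with MSA-ZW replicate 3 again low at 198 CPM. With all libraries Cenpe did not pass (edgeR adjusted p = 0.179). It passed without that library (edgeR adjusted p = 0.00303) and in the fits corrected for GC content. Ndc80 and Nuf2, which form the microtubule-binding end of one complex, stood at log2 differences of 0.039 and 0.040, and Cenpa, the histone that marks centromeres, at -0.016. None of these 3 passed (edgeR adjusted p of 0.636, 0.577 and 0.874).

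Of the 8 spindle motor and microtubule genes, 7 lay lower on MSA-DA, where 49.7% of all tested genes lay lower. Of the 8, 0 passed the edgeR test, where 6.5% of all tested genes fell, and 0 passed with DESeq2. At an unadjusted edgeR p below 0.05, 3 were lower, where 12.4% of all tested genes were. The median log2 difference of these 8 genes was -0.049. Kif2c, which depolymerises microtubule ends at centromeres, and Tpx2, the spindle assembly factor that activates Aurora A, came nearest. Kif2c averaged 77.4 ± 1.51 CPM on MSA-DA, against 83.6 ± 3.42 CPM on MSA-ZW (SD, n = 3 each, log2 difference -0.11, edgeR adjusted p = 0.0794). Tpx2 averaged 242 ± 2.83 CPM on MSA-DA, against 255 ± 2.74 CPM on MSA-ZW (log2 difference -0.076, edgeR adjusted p = 0.0816). In both genes the 3 MSA-DA libraries lay below the 3 MSA-ZW libraries. Kif22, a chromosome-arm motor, averaged 64.3 ± 1.05 CPM on MSA-DA, against 68.9 ± 4.18 CPM on MSA-ZW, and passed once MSA-ZW replicate 1 was left out (edgeR adjusted p = 0.165 with all libraries and 0.0334 without it). The log2 differences of Kif4, Nusap1, Hmmr and Kif15, which act on chromosome arms or spindle microtubules, ran from -0.056 to -0.0066. Kif11, the motor that pushes spindle poles apart, was the exception in sign at 0.031 (edgeR adjusted p = 0.592).

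Of the 5 cytokinesis genes only Kif20a passed, where 6.5% of all tested genes fell. Kif20a, a motor of the central spindle (ENSMUSG00000003779, chromosome 18, 34757666 to 34766330, GRCm39), had 120.1, 119 and 119 CPM on MSA-DA, against 126, 136 and 131 CPM on MSA-ZW. The MSA-DA libraries were almost equal and all lay below the MSA-ZW libraries, with 1.10-fold lower levels (log2 difference -0.14, SE 0.035, edgeR adjusted p = 0.00646). Kif20a held its call in 14 of 16 alternatives, more than any other member, and lost it with limma without a filter on FPKM (limma adjusted p = 0.0745) and in the edgeR fit that left out MSA-ZW replicate 2 (adjusted p = 0.0538). Prc1, which bundles the microtubules that Kif20a works on, averaged 139 ± 2.06 CPM on MSA-DA, against 139 ± 0.839 CPM on MSA-ZW, with an interval from -4.60% to 4.66%. Kif23, a subunit of the centralspindlin complex, stood at a log2 difference of 0.053, Anln, the contractile ring scaffold, at -0.038 and Ect2, the activator of RhoA at the cleavage site, at -0.0084. None of these passed (edgeR adjusted p of 0.37, 0.521 and 0.917).

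Top2a and Mki67, the most abundant members per length, differed in result, since Top2a passed and Mki67 did not. Top2a, the topoisomerase that untangles sister chromatids (ENSMUSG00000020914, chromosome 11, 98883769 to 98915015, GRCm39), had 854, 874 and 874 CPM on MSA-DA, against 917, 922 and 897 CPM on MSA-ZW. The groups did not overlap, and the 1.05-fold lower level was the smallest change called among the members (log2 difference -0.072, SE 0.023, edgeR adjusted p = 0.0305). Its call was lost in 9 of 16 alternatives, including the fits without any one library other than MSA-ZW replicate 3. Mki67, encoding the proliferation marker Ki-67 that coats mitotic chromosomes, had 906, 879.9 and 867.9 CPM on MSA-DA, against 923, 949 and 857 CPM on MSA-ZW. The groups overlapped, and MSA-ZW replicate 3 was the lowest of the 6 libraries. Mki67 did not pass (log2 difference -0.040, SE 0.028, edgeR adjusted p = 0.394), and passed without MSA-ZW replicate 3 (log2 difference -0.082, edgeR adjusted p = 0.00588).

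**Figure D3:**
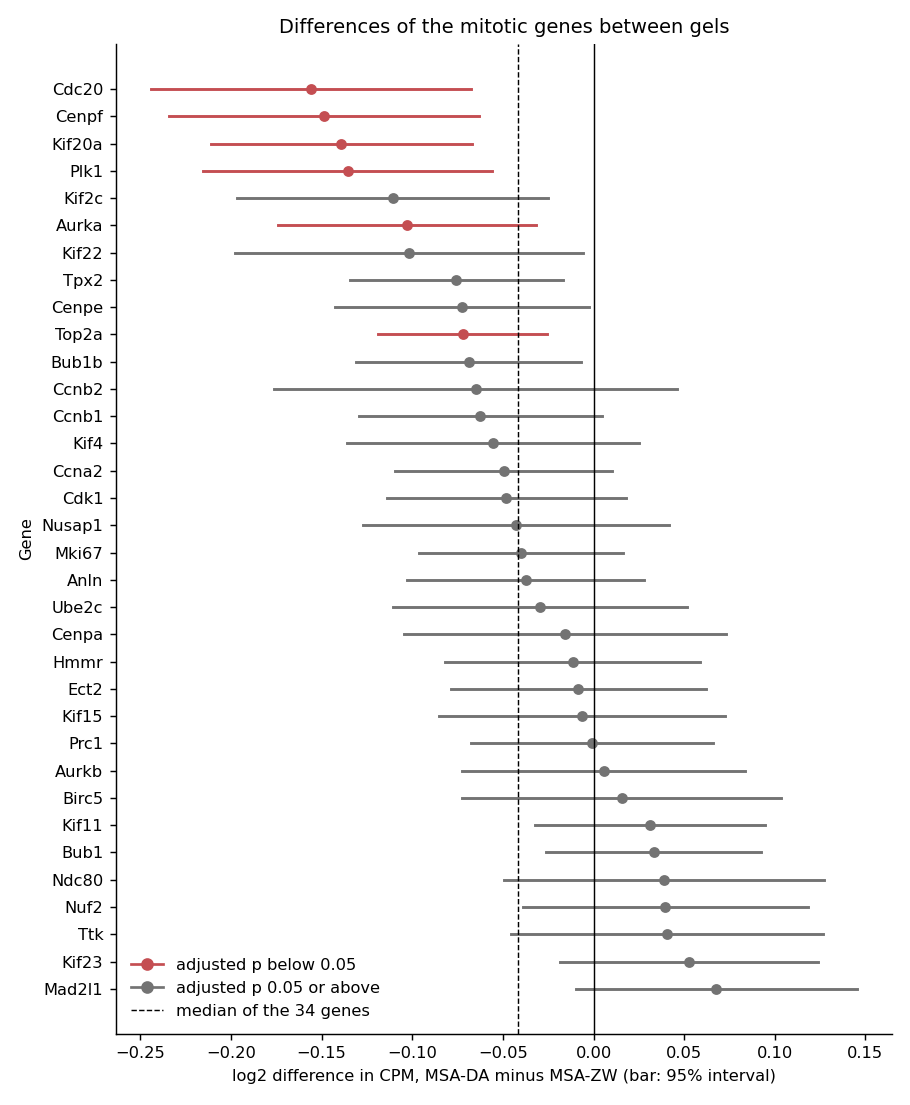
Log2 difference in CPM between MSA-DA and MSA-ZW for each mitotic gene, with its 95% interval from the edgeR fit, in red where the adjusted p was below 0.05. The 6 red genes lie between -0.16 and -0.072, the dashed line marks the median of the 34 genes at -0.041, and no interval on the right of 0 passed.

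The 28 members that did not pass had log2 differences from -0.11 to 0.068, 19 below 0 and 9 above it. Their 95% intervals, which are not adjusted for the number of genes, lay within 10% of equality in either direction for 24 of the 28. Across all 28 the intervals reached from -12.8% to 10.6%. A p that missed the threshold does not show that a gene's level was the same on both gels.

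The differences varied with the base composition of the transcripts. Over the 34 members, the log2 difference fell with the GC content of the longest transcript (Spearman rho -0.58 across genes, which share the same 6 libraries and are not independent), as it did over 12329 tested genes (-0.32). The members' median GC content was 46.2%, against 49.1% over all tested genes. Of the 6 called members, Plk1, Cdc20 and Aurka lay above both medians at 56.0%, 55.6% and 51.4%. Kif20a lay between the medians at 48.4%, and Top2a and Cenpf below both at 43.4% and 43.3%. Ube2c and Aurkb were also rich in GC, at 55.5% and 52.5%, with log2 differences of only -0.029 and 0.0056. With each library corrected for its GC and length trend, the rho over members was -0.14. The corrected fit called 6 members, all lower, and 10.1% of all tested genes in either direction, but only Cenpf, Kif20a and Top2a were among both sets. Plk1, Aurka and Cdc20 no longer passed (edgeR adjusted p of 0.223, 0.077 and 0.159) but still lay lower, at corrected log2 differences of -0.077, -0.093 and -0.099. Ccnb1, Cenpe and Tpx2 passed in that fit (edgeR adjusted p of 0.019, 0.0132 and 0.0294). The median log2 difference of the members went to -0.068 after the correction, and 30 of 34 then lay below 0.

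**Figure D4:**
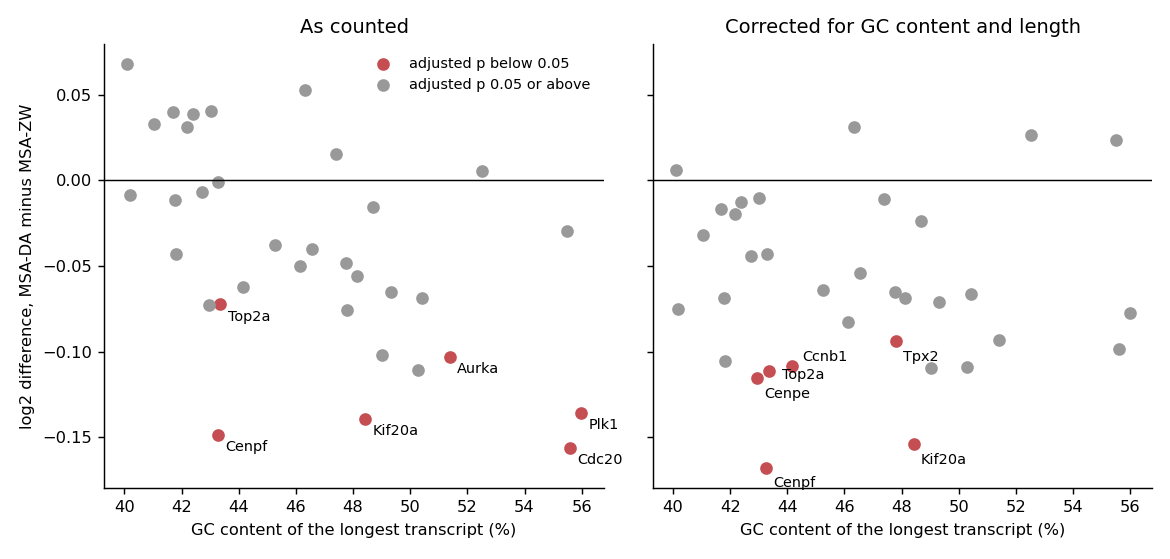
Log2 difference between MSA-DA and MSA-ZW against GC content of the longest transcript for the 34 mitotic genes, as counted on the left and after correction for GC content and length on the right, with genes of adjusted p below 0.05 in red. On the left the difference falls with GC content (rho -0.58), although Cenpf, the second lowest gene, has a GC content of only 43.3%, and on the right the relation is weaker (rho -0.14) and 30 of 34 genes lie below 0.

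MSA-ZW replicate 3 departed from the other MSA-ZW libraries in several long members. Relative to the mean of MSA-ZW replicates 1 and 2, its 4 lowest log2 levels were -0.22 for Cenpf, -0.14 for Cenpe, -0.13 for Mki67 and -0.095 for Kif15, whose exonic lengths are 15433, 8620, 10061 and 11020 bases. Anln and Top2a, at 9063 and 9013 bases, stood at only -0.027 and -0.035. Over the 34 members this ratio fell with exonic length (Spearman rho -0.68), and over all 12467 tested genes the rho was -0.17. Whether length set the calls of these genes was not tested beyond the corrected fit and the fits without that library.

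Reads of some members can also overlap those of a neighbour on the opposite strand, and no source used here says whether counting was stranded. Kif20a overlaps Cdc23 and Cdc20 overlaps Elovl1, with mean counts of 2077 and 1184 for these members and of 1137 and 1602 for their neighbours. Ccna2, Kif4, Nusap1 and Prc1 overlap Exosc9, Pdzd11, Oip5 and Rccd1 in the same way. The values of these members are uncertain to that extent.

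Beyond the 34, other cell cycle genes were read from 7 lists of 147 genes, of which 143 were tested, 20 fell and 5 rose. Over all tested genes, for comparison with each list, 6.5% fell and 6.92% rose. These shares are also not matched for expression level. Among 42 other mitotic genes 4 fell (9.52%) and 1 rose, with a median log2 difference of -0.031. Ccnf, encoding cyclin F, had 73.5 ± 2.65 CPM on MSA-DA, against 82.3 ± 2.07 CPM on MSA-ZW (SD, n = 3 each, edgeR adjusted p = 0.00745). Racgap1, the partner of Kif23 in centralspindlin, had 120.1 ± 3.76 CPM on MSA-DA, against 132 ± 2.62 CPM on MSA-ZW, and the cohesin protector Cdca5 had 40.7 ± 1.19 CPM on MSA-DA, against 45.8 ± 1.34 CPM on MSA-ZW. The 1 that rose was Psrc1, a spindle protein, at 34.4 ± 1.27 CPM on MSA-DA, against 30.3 ± 1.07 CPM on MSA-ZW (edgeR adjusted p = 0.0464). Psrc1 passed narrowly, and its call was not followed through the alternatives. Ccnf, Racgap1 and Cdca5 held their calls in 10, 12 and 9 of 16 alternatives. With the GC correction Ccnf and Cdca5 stood at log2 differences of -0.12 and -0.16 and did not pass (edgeR adjusted p of 0.061 and 0.0541).

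In the condensin and cohesin list 2 of 17 fell (11.8%) and 1 rose. In that of the APC/C subunits and regulators 1 of 17 fell (5.88%) and 1 rose, near the 6.5% lower and 6.92% higher of all tested genes. The median log2 differences of these lists, in that order, were 0.0081 and -0.068. The condensin II subunit Ncaph2 and the cohesin loader Nipbl were 1.10-fold and 1.08-fold lower, and Wapl, which releases cohesin, was 1.07-fold higher. The APC/C subunits Anapc7 and Cdc27 differed in direction, at log2 differences of -0.18 and 0.12 (edgeR adjusted p of 0.0301 and 0.0139). Anapc7 held its call in 6 of 16 alternatives, and Ncaph2, Nipbl, Wapl and Cdc27 in 10, 8, 8 and 8. With the GC correction Cdc27 stood at a log2 difference of 0.052 and Wapl at 0.039, and neither passed (edgeR adjusted p of 0.336 and 0.476).

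Of 20 transcription factors of the cell cycle 3 fell (15%, against 6.5% of all tested genes), and the median log2 difference was -0.043. Mybl2, encoding B-MYB, which joins the MuvB complex to activate mitotic genes, had 113, 114 and 116 CPM on MSA-DA, against 130.2, 132 and 132 CPM on MSA-ZW. The groups were widely apart, and its log2 difference of -0.20 (SE 0.034, edgeR adjusted p = 7.46e-05) was larger than that of any of the 34 members in that fit. Mybl2 held its call in 16 of 16 alternatives, but its log2 difference there ran from -0.214 to -0.136. Across the same alternatives that of Cenpf ran from -0.221 to -0.104. Foxm1, the other activator of late cell cycle genes, had 91.9, 93.8 and 90.5 CPM on MSA-DA, against 98.3, 95.5 and 102 CPM on MSA-ZW. The Foxm1 groups did not overlap, but it did not pass (log2 difference -0.099, edgeR adjusted p = 0.0917). E2f4 and E2f7, which mainly repress cell cycle promoters, were 1.12-fold and 1.19-fold lower, but held their calls in only 7 and 5 of 16 alternatives. Both lost them with DESeq2, in all 3 limma fits and with the GC correction. Without 1 library, E2f4 lost its call when MSA-DA replicate 1, MSA-DA replicate 2 or MSA-ZW replicate 3 was left out, and E2f7 when MSA-DA replicate 2 or 3 or MSA-ZW replicate 1 or 2 was.

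The 3 D-type cyclins, which drive passage through G1, all fell. They were the only genes to fall among the 11 tested G1 cyclins and kinases (27.3%, against 6.5% of all tested genes). Ccnd1 averaged 727 ± 12.4 CPM on MSA-DA, against 801 ± 5.69 CPM on MSA-ZW, and Ccnd2 124 ± 3.78 CPM on MSA-DA, against 139 ± 2.66 CPM on MSA-ZW (SD, n = 3 each). Ccnd3 averaged 47.9 ± 0.525 CPM on MSA-DA, against 54.9 ± 1.11 CPM on MSA-ZW. Their edgeR adjusted p were 5.19e-05, 0.000754 and 0.00595. DNA replication genes fell in 7 of 24 (29.2%, against 6.5% of all tested genes), with a median log2 difference of -0.076. The 3 with the smallest p were Uhrf1, Rrm1 and Mcm6, at log2 differences of -0.17, -0.13 and -0.13. The D-type cyclin genes Ccnd1, Ccnd2 and Ccnd3 held their calls in 16, 15 and 13 of 16 alternatives, and Uhrf1, Rrm1 and Mcm6 in 16. With the GC correction Ccnd3 stood at a log2 difference of -0.121 and did not pass (edgeR adjusted p = 0.126). Among 12 tested CDK inhibitors and antiproliferative genes 2 rose, where 6.92% of all tested genes rose, and the median log2 difference was 0.11. These 2 were the p53 target Ccng1, 1.12-fold higher, and Btg1, 1.11-fold higher, with calls in 16 and 15 of 16 alternatives. The CDK inhibitor genes Cdkn1a and Cdkn1b did not pass, at 214 ± 2.71 CPM on MSA-DA against 221 ± 8.92 CPM on MSA-ZW and at 38.7 ± 0.804 CPM on MSA-DA against 38.0 ± 1.35 CPM on MSA-ZW.

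**Figure D5:**
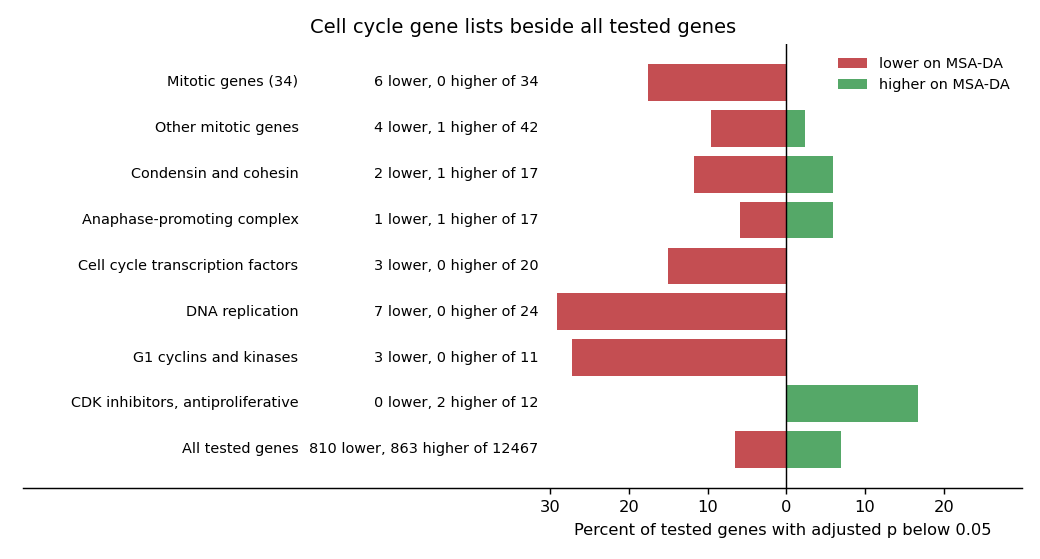
Share of tested genes with an edgeR adjusted p below 0.05 in each cell cycle list and in all tested genes, lower on MSA-DA to the left and higher to the right. The mitotic genes had 6 lower and 0 higher of 34, DNA replication genes 7 lower of 24, and all tested genes 810 lower and 863 higher of 12467.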

How the data were processed

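Gene expression was measured by RNA sequencing in 6 libraries, grouped by their titles. The submitters' processing notes name GRCm39 as the build and, as tools, HISAT2 (2.2.1), cutadapt (1.9.1) and bcl2fastq (2.20.0.422). No source used here states the counting tool, its strand setting or the annotation release. The authors deposited 1 table with raw counts and FPKM values for each library and the exonic length of each gene, per the file headers. Whole-number counts were tested as deposited.

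MSA-DA was compared with MSA-ZW by edgeR 4.0.16 in R 4.3.3 (TMM, filterByExpr, quasi-likelihood test, group as the only term, threshold 0.05 over 12467 genes). Intervals are 95% and, like the standard errors, come from that fit. Alternatives were DESeq2 1.42.0, RLE scaling, no count filter, and limma 3.58.1 with a trend on log2(FPKM + 1) or log2(FPKM + 0.1), with and without an FPKM of at least 1 in 3 libraries. The others left out mitochondrial and ribosomal-RNA-like genes or each library in turn, added a replicate block, or corrected each library for GC content (GENCODE M21 transcripts) and length. Fits were also run on simulated data, with planted changes larger than any called among the members. Recovery of changes as small as those of the members was therefore not tested.

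The members and lists were chosen with earlier results of these data known. Every library's value is printed for each member past the threshold and for Mki67, Top2a, Ccnb1, Ccna2, Cdk1, Plk1, Aurkb and Birc5. Each list gives up to 3 members past the threshold by p, and always Foxm1, Mybl2, Cdkn1a and Cdkn1b. Psrc1 was named after its value was seen. Lck was the only one of 5 T cell markers that was tested, and it did not pass.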

Additional observations from a re-analysis of the deposited data

How the results depend on the processing

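The 6 members lower on MSA-DA became 3 with DESeq2, 2 with limma on log2(FPKM + 1) or log2(FPKM + 0.1), and 0 with limma without an FPKM filter. In that last fit 10 members were lower at an unadjusted p below 0.05, where 1702 of all 23514 tested genes were lower and 1560 higher. The range without each library in turn was 1 to 7. The 25 related genes called became 15, 15 and 7 with the same 3 limma fits, and 16 to 25 without each library. The 1673 genes called overall became 949 with DESeq2, 906, 895 and 412 with limma, and 1001 to 1654 without each library. The median difference of the members moved to -0.068 with the correction for GC content and length, and to -0.067 with that correction and a replicate block. The cause was not tested beyond the composition of the transcripts. With the replicate block 6 members, 24 related genes and 1594 genes overall were called. No label says whether same-numbered libraries belong together. With each gene centred within its group, same-numbered libraries had correlations across genes of 0.011, 0.017 and -0.0025. Not every library correlated best with its own number. With 3 libraries per group this check cannot exclude a pairing. The block called the same 6 members.

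None of the 34 members changed sign while called. The signs of members near 0 did change. With the GC and length correction, first without and then with the block, the log2 differences were -0.0111 and -0.0106 for Birc5, -0.0321 and -0.0314 for Bub1, -0.0103 and -0.0104 for Ttk, 0.0236 and 0.0246 for Ube2c, -0.0125 and -0.0133 for Ndc80, -0.0167 and -0.0147 for Nuf2 and -0.0196 and -0.0197 for Kif11. For Cdkn1a they were 0.00095 and 0.00174 and for Cdkn1b -0.0284 and -0.0257. Aurkb went to -0.0011, -0.0012 and -0.0011 in the 3 limma fits. Without each library in turn, the log2 difference ran from -0.0229 to 0.0203 for Aurkb, -0.0311 to 0.0466 for Birc5, -0.0422 to 0.0099 for Hmmr, -0.0154 to 0.0056 for Prc1, -0.039 to 0.0327 for Kif15, -0.0298 to 0.011 for Ect2 and -0.0088 to 0.0404 for Cdkn1b.

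With all 6 libraries, members carried SEs of 0.023 to 0.055 on the log2 scale, and the smallest change called was 4.89%.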
